A study of Bos taurus with 252 samples.

Results

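The class I antigen processing genes described here are the rows B2M, TAP1, TAP2, TAPBP, PSMB8, PSMB9, PSMB10, NLRC5, ERAP1 and CALR of the count table, 10 of 33282 genes. They were chosen by name from what their products do, and all 10 passed the filter on low counts, which 19056 genes passed. The samples were whole blood of 42 steers, collected in PAXgene tubes, in 7 groups of 6 steers. Negative control (NC) steers received no antimicrobial at arrival, and the 6 other groups each received 1 drug. These were the cephalosporin ceftiofur (CEFT), the fluoroquinolone enrofloxacin (ENRO), the phenicol florfenicol (FLOR), the tetracycline oxytetracycline (OXYT) and the macrolides tildipirosin (TILD) and tulathromycin (TULA). Blood was drawn 6 times from every steer, on day 0 before administration, in the first week on days 3 and 7, and later at days 14, 21 and 56. All steers, NC included, had received tildipirosin, vaccines, dewormers and an implant at backgrounding. Each treatment was kept in a pen of its own, and NC was handled first on each sampling day, so pen, order of handling and treatment cannot be told apart.

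Cells cut their own proteins in the proteasome and show the pieces on the surface bound to class I heavy chains, where cytotoxic T cells read them. PSMB8, PSMB9 and PSMB10 are the catalytic subunits of the immunoproteasome, which replace their constitutive counterparts PSMB5, PSMB6 and PSMB7. TAP1 and TAP2 form the transporter that carries peptides into the endoplasmic reticulum, TAPBP encodes tapasin, which bridges the transporter and the heavy chain, and CALR encodes calreticulin, a chaperone of the loading complex. ERAP1 trims peptides inside the endoplasmic reticulum. B2M encodes the light chain of the complex, and NLRC5 the transactivator of class I genes. Interferon gamma is the best known inducer of most of these genes.

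The library totals lay between 26.1 M and 74.1 M counts with a median of 43.6 M, and each member had at least 767 counts in every library. Levels are given as CPM, counts scaled to the size of the library with TMM factors, and log2 fold changes carry a standard error (SE) and a Benjamini-Hochberg false discovery rate (FDR) over all genes tested. CPM does not take transcript length into account, so members are not ranked against each other. NC shared lane 1 with ENRO and with part of FLOR. Lane 2 held TULA and the rest of FLOR with part of TILD, and lane 3 held the remainder of TILD beside CEFT and OXYT. The lists of blood cell markers were present, apart from CA1 of the erythroid list, which had no count in any library, and GNLY and CSF3R, which are not listed under these names.

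Counts of 4 members ran against those of a nearby gene, and these values are given first. Neighbours were taken from the gene order of RefSeq for ARS-UCD2.0, in which 16927 of the 19056 genes were found, and values were centred within each treatment and day. TAPBP ranged from 20.5 to 930 CPM with a median of 275 CPM. The library with the least TAPBP, of steer Oxyt1 on day 14, held 20.5 CPM of TAPBP and 799 CPM of ZBTB22, a zinc finger gene beside it. The library with the most, of steer NC1 on day 21, held 930 CPM of TAPBP and 365 CPM of ZBTB22. Over all libraries TAPBP and ZBTB22 ran against each other (Spearman's rho -0.79, a description over libraries that share steers). TAPBP took between 2.5% and 86.1% of the summed counts of this pair. The standard deviation (SD) of log2 CPM within groups was 1.10 for TAPBP and 0.61 for ZBTB22, but 0.17 for their sum. The other neighbour, RGL2, ran with TAPBP (rho 0.78) at a median of 3.13 CPM.

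The same was seen, in weaker form, for TAP2 with PSMB8 and for PSMB10 with SLC12A4. TAP2 and PSMB8, which lie near each other in the class II part of the major histocompatibility complex, had a rho of -0.56. Their SDs were 0.41 and 0.57 on the log2 scale, against 0.20 for the sum. PSMB10 and SLC12A4, a potassium chloride transporter gene, had a rho of -0.41, with SDs of 0.50 and 0.345 against 0.22 for the sum. Among 33755 pairs of tested genes up to 2 places apart, 0.110% had a rho as low as TAPBP with ZBTB22, 0.593% as low as TAP2 with PSMB8 and 1.34% as low as PSMB10 with SLC12A4. Of the 2126 such pairs in which both genes had a mean above 50 CPM, 10 had a rho as low as the first of these, 47 as low as the second and 89 as low as the third. For the other members the lowest rho with any of up to 6 neighbours lay between -0.372 for B2M with SPG11 and -0.008 for CALR with SYCE2. How counts were divided between overlapping or adjoining transcripts was not tested. The sums of these 3 pairs, which were chosen after the values of the neighbours had been seen, are given beside the genes.

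**Figure D1:**
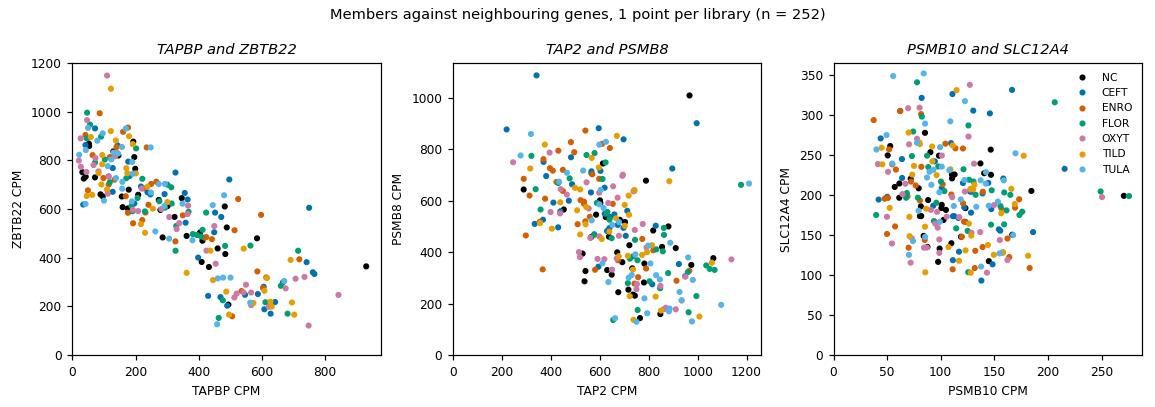
Scatter plots of CPM in all libraries for TAPBP against ZBTB22, TAP2 against PSMB8 and PSMB10 against SLC12A4, 1 point per library coloured by group. TAPBP and ZBTB22 fall along a descending band (rho -0.79 within groups), the band of TAP2 and PSMB8 is wider (rho -0.56) and that of PSMB10 and SLC12A4 is the widest (rho -0.41).

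B2M had an adjoining gene of high counts, LOC783680, at a median of 4504 CPM. The lowest B2M value, 186 CPM in steer Tild2 on day 14, came with the highest value of LOC783680, 7882 CPM, and their sum of 8068 CPM lay inside the range of 4827 to 11470 CPM over all libraries. Over all libraries, however, the counts of both genes ran together (rho 0.44 within groups). The SD of log2 CPM within groups was 0.37 for B2M, 0.19 for LOC783680 and 0.18 for the sum. B2M took a median of 37.5% of the summed counts, so the SD of the sum lay close to that of LOC783680 alone. Reads shared between B2M and LOC783680 were not tested.

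The first question was whether the level of these genes changed over the receiving period in the 42 steers. By the F test over all days, 7 of 10 members passed an FDR of 0.05, while 77.1% of all genes tested did, so the share of members lay near that of the table. The F test called 4 members without the OXYT steers (74.3% of all genes) and 1 in the NC steers alone (27.6% of all genes). The immunoproteasome subunits rose on 1 or more days, ERAP1 fell, TAPBP fell on day 3, NLRC5 fell on day 7, CALR was higher on days 7 and 21, and B2M, TAP1 and TAP2 did not pass the test. Against day 0, 3 members passed by day 3 (38.9% of all genes), and 5 did at day 7 (43.7%). At day 14 there were 4 (62.7%), at day 21 there were 5 (64.3%), and at day 56 there were 3 (63.3%), all shares below those of the whole table from day 14 onward. The median log2 fold change of the members lay between -0.01 and 0.04 on these days, and that of all genes tested between 0.02 and 0.03.

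**Figure D2:**
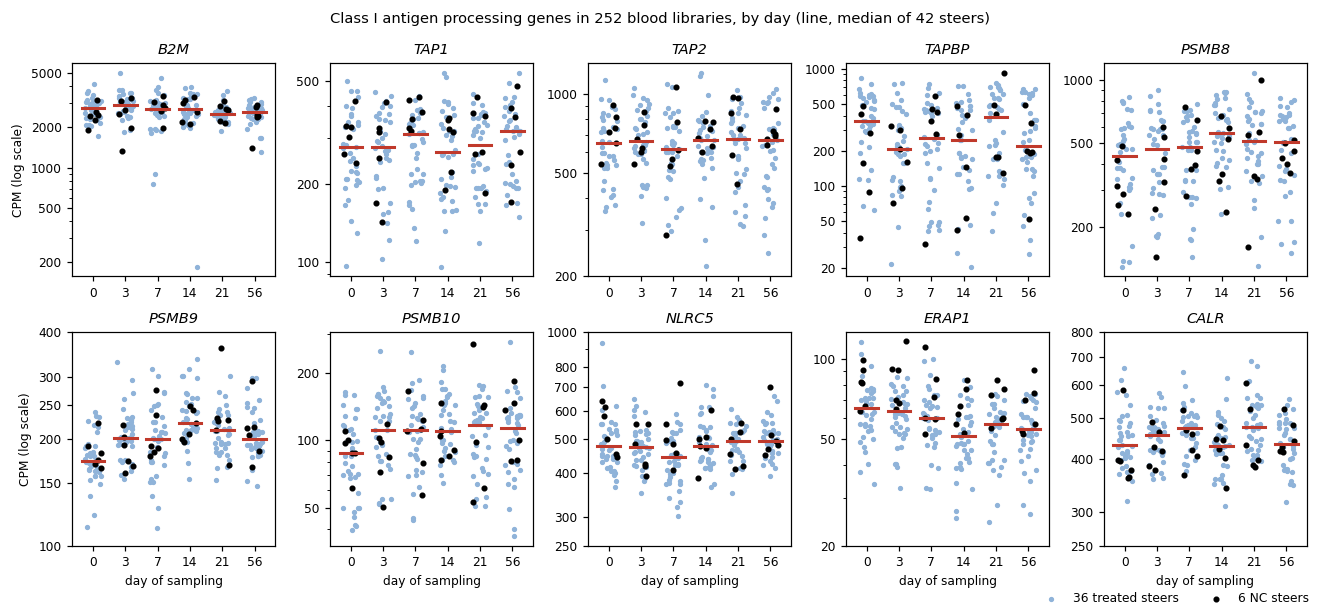
CPM of the 10 members on a log scale by day of sampling, with 1 point per steer (black, 6 NC steers; blue, 36 treated steers) and a red line at the median of 42 steers. The median of PSMB9 goes from 174 CPM on day 0 to 222 CPM on day 14 and that of ERAP1 from 65.3 to 51.6 CPM, while the points of TAPBP span 20.5 to 930 CPM.

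PSMB9 had the lowest FDR among the immunoproteasome subunits on day 14. On day 0 it lay between 113 and 239 CPM with a median of 174 CPM, and on day 14 between 154 and 337 CPM with a median of 222 CPM. The ranges of the 2 days overlapped widely, but 36 of 42 steers were above their own day 0 on day 14. The log2 fold change was 0.37 ± 0.05 (SE, n = 42, edgeR quasi-likelihood test, FDR 4.69e-12) on day 14. The other later days also passed, with 0.20 (day 3), 0.17 (day 7), 0.25 (day 21) and 0.22 (day 56), each with an SE of 0.05. In the 6 NC steers alone it was -0.01 on day 3 and 0.17 by day 7. At the 3 later samplings it was 0.22 (day 14, FDR 0.218), 0.33 (day 21, FDR 0.0718) and 0.18 (day 56), each with an SE of 0.13, and no day passed for PSMB9.

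PSMB8 had medians of 435 CPM on day 0 (129 to 828 CPM) and 558 CPM on day 14 (229 to 881 CPM). Its log2 fold change was 0.43 ± 0.11 on day 14 (edgeR FDR 0.000291) and 0.30 ± 0.11 on day 21 (FDR 0.0137). Summed with TAP2, the fold change was 0.17 ± 0.04 on day 14 (FDR 0.000388) and 0.12 ± 0.04 on day 21 (FDR 0.0155). PSMB8 in the NC steers alone was at 0.40 on day 14 and 0.53 on day 21, each with an SE of 0.31, and did not pass. PSMB10 went from a median of 87.9 CPM (39.8 to 164 CPM) on day 0 to 111 CPM (64.2 to 216 CPM) on day 14, with 33 of 42 steers above their own day 0. Its log2 fold change lay between 0.26 and 0.40 on the 5 later days, each with an SE of 0.11, and passed on all of them (edgeR FDR 0.000753 on day 14). Summed with SLC12A4 it was 0.45 ± 0.04 on day 14 (FDR 1.78e-23). In NC steers alone, the fold changes of PSMB10 were -0.09 (day 3), 0.19 (day 7), 0.16 (day 14), 0.40 (day 21) and 0.35 (day 56), each with an SE of 0.29, and none passed.

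Of the other proteasome genes on day 14, the activator subunits PSME1 (0.24 ± 0.04, edgeR FDR 3.9e-10) and PSME2 (0.25 ± 0.05) rose, while the assembly factor POMP (-0.16 ± 0.04) and PSME3 (-0.07 ± 0.02) fell. The constitutive catalytic subunits PSMB6 (0.39 ± 0.07) and PSMB5 (0.23 ± 0.04) rose as well, and PSMB7 did not pass. Among the 11 other subunits of the proteasome core, 7 rose and 1 fell on day 14, with PSMB2 at 0.37, PSMB1 at 0.36 and PSMA5 at 0.34 above day 0 and PSMA3 at -0.64. The median log2 fold change of these 11 subunits was 0.19, against 0.02 for all genes tested. A difference between the immunoproteasome subunits and the constitutive ones was not tested.

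The transporter genes did not pass the test on any later day against day 0. TAP1 had daily medians between 266 and 320 CPM, and single libraries reached from 96.0 to 536 CPM. Its log2 fold changes against day 0 lay between -0.03 and 0.12 with an SE of 0.10. TAP2 had daily medians between 614 and 676 CPM, with fold changes between -0.09 and 0.07 on the log2 scale and an SE of 0.08. The lowest rho of TAP1 with a neighbouring gene was -0.16 (TAP2), and that with PSMB9 was 0.31.

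TAPBP had the largest fold change of the members on day 3, -0.67 ± 0.24 on the log2 scale (edgeR FDR 0.0208), with medians of 360 CPM on day 0 and 208 CPM on day 3. The ranges were 36.1 to 842 CPM and 21.8 to 766 CPM, and 25 of 42 steers were below their own day 0. The sum of TAPBP and ZBTB22 stood at 0.06 ± 0.04 on day 3 (FDR 0.196) and was higher by 0.16 on day 14, 0.21 on day 21 and 0.20 on day 56, each with an SE of 0.04 and past the FDR.

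**Figure D3:**
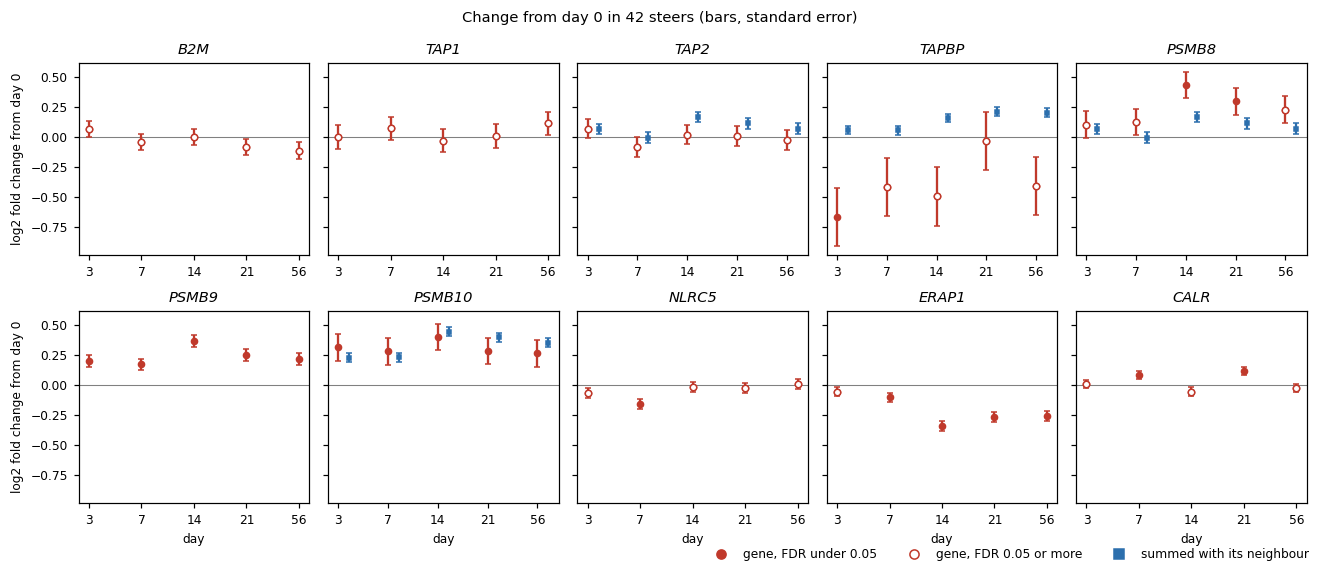
Log2 fold change of each member from day 0 to each later day in 42 steers, with bars for the SE. Filled circles passed an FDR of 0.05, open circles did not, and blue squares give the sum with the neighbouring gene. PSMB9 lies above 0 on all 5 days, ERAP1 is lowest on day 14 (-0.34), and the circles of TAPBP (-0.67 on day 3) are separated from its squares (0.06).

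ERAP1 fell over the later days. On day 0 it lay between 33.9 and 115 CPM with a median of 65.3 CPM, and on day 14 between 25.3 and 83.3 CPM with a median of 51.6 CPM. The fold change was -0.34 ± 0.04 on the log2 scale on day 14 (edgeR FDR 2.93e-14), -0.27 on day 21 and -0.26 on day 56, and 39, 36 and 35 of 42 steers were below their own day 0. On day 7 it was -0.10 ± 0.04 (FDR 0.0276), and on day 3 it did not pass. The NC steers alone gave -0.31 ± 0.08 on day 14 (FDR 0.00658) and -0.27 on day 21 (FDR 0.0221), and 6 of 6 NC steers were below day 0 on days 14, 21 and 56. ERAP2, the second trimming peptidase and the neighbour of ERAP1, fell by 0.58 on the log2 scale on day 14 (FDR 4.16e-24), while their rho within groups was 0.22. LNPEP, the next gene and a related peptidase, fell by 0.41.

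NLRC5 passed on day 7 among the later days, at -0.15 ± 0.04 (edgeR FDR 0.000881), with a median of 445 CPM against 478 CPM on day 0, and 23 of 42 steers were below their own day 0. In the NC steers it was -0.07 on day 7 and did not pass. CALR was higher on day 7 (0.08 ± 0.03, FDR 0.0356) and day 21 (0.12 ± 0.03, FDR 0.00135) and did not pass on the other days. Its medians were 432, 457, 474, 429, 477 and 435 CPM on the 6 days in order, highest on days 7 and 21. B2M, with daily medians between 2520 and 2896 CPM, had fold changes between -0.11 and 0.07 on the log2 scale with an SE of 0.07, and no day passed.

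Between consecutive samplings, the share of members that passed was largest where that of all genes was largest. Compared with the sampling before, 0 members passed on day 7 (19.5% of all genes against day 3), 5 on day 14 (47.1% against day 7), 1 on day 21 (12.1% against day 14) and 1 on day 56 (6.27% against day 21). Between days 3 and 7, 2 members had an unadjusted p under 0.05 by edgeR, and limma voom also called 0. From day 7 to day 14 PSMB8 rose by 0.31, PSMB9 by 0.20 and NLRC5 by 0.14 on the log2 scale, and ERAP1 fell by 0.24 and CALR by 0.14. The sum of PSMB8 and TAP2 rose by 0.17 over this step (FDR 0.00041). In the NC steers alone none of these 5 passed, and PSMB8 stood at -0.13, PSMB9 at 0.05, NLRC5 at -0.10, ERAP1 at -0.13 and CALR at -0.08. CALR then rose by 0.17 to day 21 and fell by 0.14 to day 56.

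The makeup of the blood moved over the same days, and in whole blood fewer cells of a type and less RNA per cell cannot be told apart. On day 14 against day 0, 9 of 10 T cell markers and 6 of 8 B cell markers were higher, 6 of 7 monocyte markers and 6 of 7 neutrophil markers were lower, and 8 of 8 erythroid markers were higher. The summed CPM of the T cell markers had a median of 1901 on day 0 and 2602 on day 14, that of the neutrophil markers 2628 and 1707 and that of the monocyte markers 870 and 515. Hemoglobin transcripts took a median of 0.224% of the counts on day 0 and 3.06% on day 14, and leaving them out before scaling gave 20 calls of members against day 0, the same number as with them. Within treatment and day groups the members correlated weakly with the marker sums. The rho lay between -0.21 for B2M with the B cell markers and 0.29 for PSMB9 with the neutrophil markers. Centring within these groups takes out the shifts between days, so these values do not bear on the changes over days. The part of cell makeup in the changes over days was not tested.

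Genes around the pathway moved in both directions, as did the whole table, in which 32.7% of genes were higher and 30% lower on day 14. Of 7 loading partners tested, 2 were higher and 5 lower on day 14, led by ERAP2 and by TAPBPL, the tapasin-related editor of peptides, which rose by 0.43 ± 0.03 on the log2 scale (edgeR FDR 6.06e-29). Calnexin (CANX) fell by 0.39 and HSPA5 by 0.32. Of 10 further chaperones of the endoplasmic reticulum, 6 were lower and 1 higher on day 14, with HSP90B1 at -0.40 and SDF2L1 at 0.29, whereas CALR did not pass. Of 7 further peptidases 3 were lower, among them LNPEP, with TPP2 at -0.38 and NPEPPS at -0.27, and THOP1 was higher at 0.20. For the peptidases and the chaperones the share that passed lay near the 62.7% of all genes on that day.

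Of 22 interferon-stimulated genes tested, 12 were lower on day 14 and 20 on day 56, and none was higher, while 30.8% of all genes were lower and 32.6% higher on day 56. RSAD2, which encodes viperin, stood at -2.49 ± 0.34 on day 56 (FDR 1.47e-11) and MX2 at -1.77 ± 0.26, and the median of this list was -0.91 against 0.02 for all genes tested. Of 8 genes of interferon gamma receptor signalling, 5 were lower on day 56 and none higher, with the kinase JAK2 at -0.84 and the receptor chain IFNGR1 at -0.44. Of 17 regulators of class I and II genes, 4 were higher and 10 lower on day 56, among them CIITA, the transactivator of class II genes, at 0.45 ± 0.04 and STAT2 at -0.46. PSMB9 and PSMB10 were higher than on day 0 on that day. Of 8 guanylate binding proteins and other genes induced by interferon gamma, 4 were lower on day 56, 0 higher and 4 did not pass. The median of this list was -0.42, and GBP5 and GBP4 stood at -0.69 and -0.68. These lists were chosen with earlier results of these data known.

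The class I heavy chain rows BOLA, BOLA-NC1 and JSP.1 spread over wide ranges between libraries, from 15.7 to 3455 CPM, from 5.51 to 1266 CPM and from 0 to 5816 CPM. These genes are highly polymorphic and near-identical to one another, so reads may be split between them, and they are not followed further.

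The second question was whether a treatment differed from NC on a given day. Of 360 comparisons (10 members, 6 treatments, 6 days) 1 passed an FDR of 0.1, ERAP1 in TILD on day 14, where 0.508% of all tests over the 36 contrasts did. At an unadjusted p under 0.05 there were 43 of 360 (11.9%), against 9.24% of all gene tests, and 17 of the 43 were ERAP1. The 36 contrasts share the 6 NC steers of each day, so directions seen in several treatments are not independent.

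**Figure D4:**
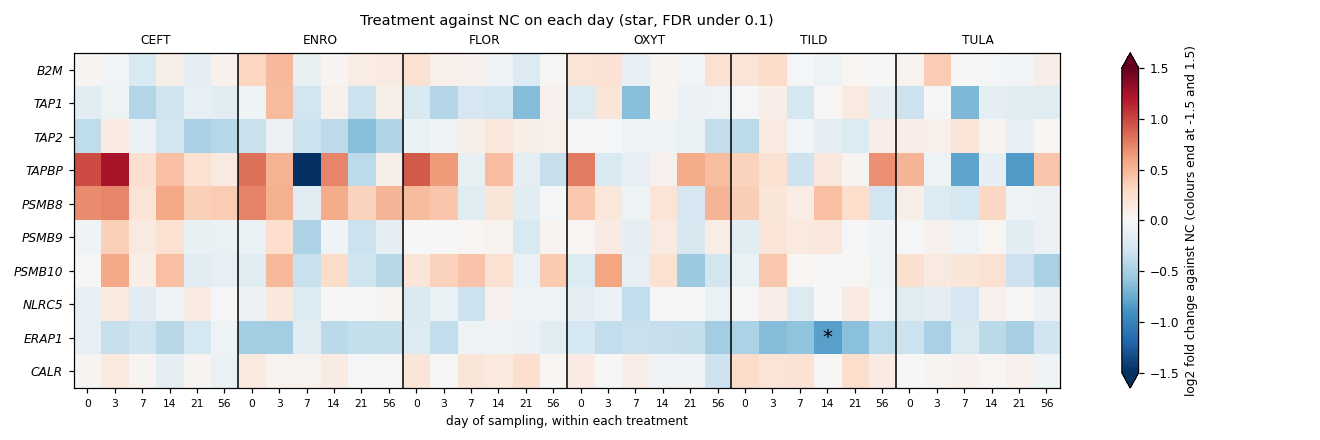
Log2 fold change of each treatment against NC for the 10 members on the 6 days, blue for lower and red for higher, with a star where the FDR was under 0.1. The row of ERAP1 is blue in all 36 columns, from -0.82 in TILD on day 14 (the star) to -0.05 in FLOR on day 14, and the row of TAPBP holds the strongest colours without a star.

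On day 14 ERAP1 lay between 26.95 and 44.05 CPM in the 6 TILD steers, with a median of 39.8 CPM. In the 6 NC steers it lay between 52.9 and 83.3 CPM with a median of 64.3 CPM. Of all genes, 0.199% were called in this contrast. The fold change of ERAP1 was -0.82 ± 0.14 on the log2 scale (n = 6 and 6, edgeR quasi-likelihood test, FDR 0.0643). It held an FDR under 0.1 in 5 of 12 refits that each left out 1 steer, with an FDR of up to 0.150 without Tild5. With lane as a term it was -0.76 (FDR 0.716). No TILD library shared a lane with NC, so lane and treatment were separated only through the FLOR steers, which were split between lanes. On day 0, before administration, ERAP1 already lay at 48.9 to 71.4 CPM in TILD against 63.9 to 98.6 CPM in NC (-0.47 ± 0.13 on the log2 scale, FDR 0.516).

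Over the 6 days together, ERAP1 was lower than NC in TILD by 0.59 ± 0.11 on the log2 scale (limma voom with steer as a block, FDR 4.78e-05). The group effect also passed in TULA (-0.41 ± 0.11, FDR 0.032) and in ENRO (-0.40 ± 0.10, FDR 0.0465). The effect was -0.38 in OXYT (FDR 0.0621), -0.24 in CEFT (FDR 0.186) and -0.15 in FLOR (FDR 0.7). These were 3 calls in 60 tests of members, and they were the same gene, where 1.80% of all tests passed over the 6 treatments, 4.63% in TILD, 0.415% in ENRO and 0.572% in TULA. The TILD libraries also differed from NC in depth (median 33.6 M against 43.6 M counts) and in the summed CPM of neutrophil markers (median 2226 against 1576) and erythroid markers (4257 against 17680), and the part of these in the result was not tested. ENRO and NC were sequenced on the same lane, so a lane term cannot change the ENRO effect (-0.40, FDR 0.0455 with it). With lane as a term those of TILD (-0.61 ± 0.20, FDR 0.181) and TULA (-0.51 ± 0.19, FDR 0.34) had larger SEs and did not pass. With day 0 left out, TILD passed (-0.61, FDR 6.47e-05), while TULA (-0.41, FDR 0.0526) and ENRO (-0.37, FDR 0.121) did not. ComBat_seq adjusted the counts for lane without a treatment term, which can also take out differences between groups on different lanes. After it no group passed, with ENRO at -0.39 (FDR 0.0589), TILD at -0.43 (FDR 0.0611) and TULA at -0.25 (FDR 1).

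Among the members, ERAP1 had the highest share of variance between steers. Steers within treatments took 51.7% of its variance in log2 CPM, and treatment took 20.9%, day 9.84% and the interaction of both 4.73%. For the other members the steer took between 16.6% (TAPBP) and 33.3% (CALR), and the median over all genes tested was 29.7%. A steer share as high as that of ERAP1 was held by 14.9% of the genes tested. Between any 2 days the steers' ERAP1 values, centred within groups, had a rho from 0.61 to 0.81 over 42 steers, and the median of the 15 pairs of days was 0.72. The next highest median among members was 0.38 for B2M, and TAPBP had 0.05.

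The geometric mean of ERAP1 over the 6 days reached from 29.02 CPM in steer Tula6 to 96.4 CPM in an NC steer, a ratio of 3.32. The NC steers lay between 57.9 and 96.4 CPM with a median of 69.3 CPM. Below the lowest NC steer were 5 of 6 TILD steers, 3 of 6 in each of TULA, ENRO, OXYT and CEFT, and 2 of 6 FLOR steers, 19 of 36 treated steers in all. This count was made for ERAP1 alone, so no share over all genes stands beside it. It rests on the same libraries as the group effect and is not separate evidence. The TILD steers had a median of 47.02 CPM, the lowest of the groups, while medians of 57.3 CPM in ENRO and OXYT, 59.6 CPM in TULA and 59.8 CPM in CEFT were close to one another, and FLOR at 68.9 CPM was close to NC. No NC steer was scored Bos indicus by the study, but the scores of the treated steers are not given here, so breed is not compared between groups. Breed, a random effect in the mixed model of the study, was not a term in the fits here. Its part in the level of ERAP1 was not tested.

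**Figure D5:**
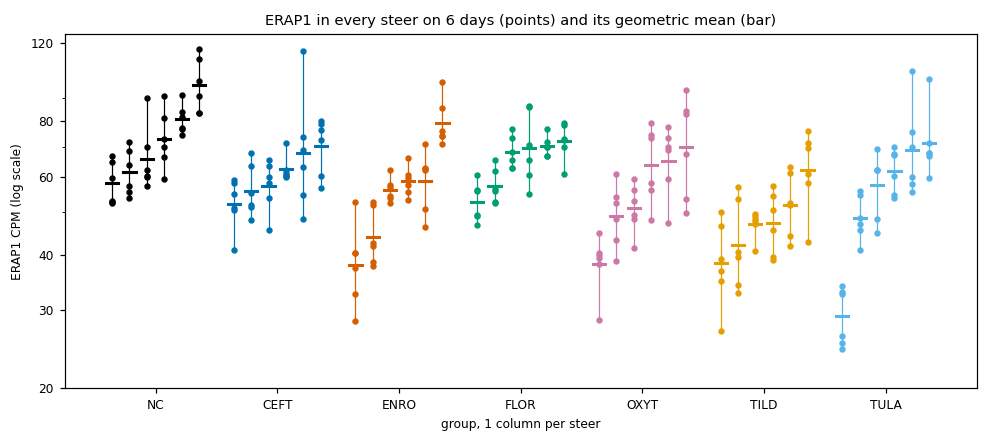
ERAP1 CPM on a log scale in each of the 42 steers (1 column per steer, sorted within its group), with a point for each of the 6 days and a bar at the geometric mean. The points of a steer stay together over days, the bars span 29.02 to 96.4 CPM, and 5 of 6 TILD bars lie below the lowest NC bar at 57.9 CPM.

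The third question was whether the change from day 0 differed between a treatment and NC, which removes differences between the groups present at the start. Of 300 tests of members 3 passed an FDR of 0.1, against 0.584% of all tests, and of 60 interaction tests 1 passed an FDR of 0.05, against 2.14%. At an unadjusted p under 0.05 the members gave 3.67% and 5% of their tests, against 8.03% and 16% of all. ERAP1 in TILD on day 14 stood at -0.33 ± 0.14 on the log2 scale and did not pass the FDR (edgeR FDR 0.452). The lowest FDR of ERAP1 in these tests, 0.0737, was in ENRO on day 7.

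The calls fell on ERAP1, TAPBP and CALR, and that of the interaction on PSMB9. In ENRO on day 7, where 9.41% of all genes were called, the change of ERAP1 was 0.39 ± 0.14 higher than in NC (edgeR FDR 0.0737). It did not pass by limma voom (0.40, FDR 0.154) or without the steer as a block (0.36, FDR 0.71). The change of TAPBP was -2.50 ± 0.92 (FDR 0.0865), and -2.40 (FDR 0.237) without the block. The change from day 0 was not fitted for the sum of TAPBP and ZBTB22, which in ENRO against NC stood at 0.08 on day 0 and -0.09 on day 7 (FDR 0.954 and 0.742). TAPBP had a median of 443 CPM on day 0 and 89.6 CPM on day 7 in ENRO, against 221 and 397 CPM in NC, and NC values reached from 31.7 to 585 CPM on day 7. CALR in OXYT on day 56 was -0.43 ± 0.12 (FDR 0.0568, where 2.20% of all genes were called). With lane by day as a term it was -0.84 (FDR 0.161), and without the steer as a block -0.43 (FDR 0.578). CALR lay between 318 and 422 CPM with a median of 367 CPM in OXYT that day and between 417 and 526 CPM in NC, and from 386 to 616 CPM on day 0 in OXYT.

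PSMB9 was the member whose course over days differed from NC, in ENRO (interaction FDR 0.0253, 7.26% of all genes). In the ENRO steers its median was 168 CPM on day 0, 218 CPM on day 3, 160 CPM on day 7 and 209 CPM on day 14, and in NC 179, 183, 190 and 214 CPM. On day 7 the ENRO values of 112 to 179 CPM met the NC range of 179 to 276 CPM at its lower end. The single differences in change, 0.36 ± 0.17 on day 3 and -0.37 ± 0.17 on day 7, had FDRs of 0.858 and 0.191.

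The genes most like the members were sought by correlation within treatment and day groups over all libraries, which share steers, lanes and depth. With the average of the 10 members, RBCK1 (rho 0.74), OGFR, PSME1, PSME2, IRF3, WARS, PSMB2 and MAD2L2 (0.66) ran most closely. PSME1 and PSME2 encode the activator that caps the immunoproteasome and WARS a tRNA synthetase induced by interferon gamma. For single members, PSMB9 ran with PSME2 (0.75) and BAK1 (0.71), NLRC5 with WARS (0.65) and PTK2B (0.64), CALR with the chaperones PDIA6 and HYOU1 (both 0.73), and B2M with TMEM59 and ATP6V1G1 (both 0.64). PSMB10 ran with YARS (0.51) and MAD2L2 (0.49), PSMB8 with ARFRP1 and PPP1R7 (both 0.48), ERAP1 with FAT1 (0.49) and ERICH6B (0.44), TAP1 with LOC512486 (0.42) and IL15RA (0.38), TAP2 with ZBP1 (0.39) and LOC786372 (0.38), and TAPBP with RGL2 (0.78) and PDE9A (0.32).

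The members ran together only loosely. Of 45 pairs, 5 had a rho above 0.3, all of them with PSMB9, and 9 were below 0. The highest was PSMB9 with PSMB10 at 0.45, followed by PSMB9 with NLRC5 at 0.37, and the lowest was TAP2 with PSMB8 at -0.56. The median over the 45 pairs was 0.16.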

How the data were processed

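Stranded mRNA libraries were made from PAXgene whole blood of 42 steers on 6 days. The authors trimmed reads with Trimmomatic 0.39, aligned them with HISAT2 to ARS-UCD1.3, assembled transcripts with StringTie 2.2.0 and converted transcript coverage into a count per gene. The submitters' processing notes give HISAT2 2.1.1. The deposited counts are whole numbers without normalization or lane adjustment, and division of coverage between adjoining transcripts can move counts between genes.

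Here, a gene was tested if its CPM exceeded 0.2 in 12 or more libraries (19056 of 33282) in R 4.3.3 with edgeR 4.0.16 and limma 3.58.1, with TMM scaling. Days were compared by the quasi-likelihood test with steer as a fixed block. For these fits the dispersion trend, and for limma the correlation of a steer's libraries, came from every 8th gene by abundance. Each treatment was set against the NC libraries of the day by the quasi-likelihood test without a block (FDR 0.1), over 6 days by limma voom with a random effect of steer (FDR 0.05), and as change from day 0 by quasi-likelihood interaction terms. The SE of an edgeR fold change is its size divided by the root of F. DESeq2 1.42.0 and sva 3.50.0 (ComBat_seq) served alternatives. Levels and correlations used CPM or log2 CPM with a prior count of 2. Shares of variance are shares of the sum of squares, with treatment, steer, day and the interaction entered in this order.

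Groups, steers and lanes came from the labels. The 6 libraries of a steer come from the same animal, and their deviations from group means had a median correlation of 0.342, against -0.0694 between other steers of a group, and the mean of every steer (42 of 42) was above 0.1. Steers of different groups are not paired. On simulated counts with 200 changed genes, the daily treatment test found 58.5% of 2-fold changes (19056 genes, 7.87% of calls false). The day test found 98.5% of smaller changes (4764 genes, 4.83% false). The test of change from day 0 found 82.5% of 2-fold changes (4764 genes, 8.33% false) and the group effect 99.5% (4764 genes, 10.8% false, above its FDR). For all but the daily treatment test, the spread between libraries and between steers was assumed, not taken from the data. These shares may not hold for members that spread widely, such as TAPBP.

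The members and gene lists were chosen with earlier results of these data known. The genes named are all members, from each list at most the 4 genes with the largest change past the FDR, and the genes most correlated with the members. No sequences were used here.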

Additional observations from a re-analysis of the deposited data

Results flagged for a closer look

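In each of 420 groups of 6 libraries (10 members, 7 groups of steers, 6 days), the highest and the lowest steer were compared with the others by Dixon's ratio. The ratio was above its 95% critical value in 31 groups (7.38%), and chance alone would give about 1 in 20. B2M held 10 of the 31, and PSMB10 held none.

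For B2M the steers standing apart on the low side were NC13 on day 56 (1399 CPM), Ceft4 on days 7 and 56 (759.1 and 1668 CPM), Tild8 on day 7 (899.6 CPM), Tild2 on day 14 (185.6 CPM) and Tild3 on day 56 (1304 CPM). On the high side they were Enro9 on day 21 (3727 CPM), Flor8 on day 7 (3972 CPM) and Tula8 on days 14 and 21 (3988 and 3486 CPM). Reads shared between B2M and its neighbour LOC783680 were not tested.

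For the transporter genes the low steers were Enro5 on day 3 (191.3 CPM), Flor7 on day 7 (169.7 CPM), Tild3 on day 21 (229.4 CPM) and Tula4 on day 14 (131.4 CPM) for TAP1, and Ceft5 on day 14 (219.3 CPM) for TAP2. TAPBP was low in NC13 on day 7 (31.72 CPM), Ceft5 on day 7 (143.2 CPM) and Ceft10 on day 21 (41.53 CPM). PSMB8 was low in Tild7 on day 7 (172.3 CPM).

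PSMB9 was high in Oxyt5 on day 0 (231.6 CPM), Oxyt6 on day 3 (293.4 CPM) and Tula8 on day 14 (302 CPM) and low in Tula3 on day 7 (137.9 CPM). NLRC5 was high in NC12 on day 56 (700.5 CPM), Flor10 on day 56 (663 CPM) and Tild5 on day 0 (932.6 CPM). ERAP1 was low in Tula6 on days 3 and 56 (32.92 and 26.22 CPM), the steer with the lowest mean over all days. CALR was high on day 0 in NC13 (585.7 CPM) and Oxyt4 (616 CPM) and low on day 14 in Oxyt1 (310.5 CPM).

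The change from day 0 differed between a treatment and NC, by the edgeR interaction terms, for ERAP1 in ENRO on day 7 (0.39 on the log2 scale), TAPBP in ENRO on day 7 (-2.50) and CALR in OXYT on day 56 (-0.43). The course of PSMB9 over days differed between ENRO and NC with an FDR of 0.0253. These 4 results share the NC steers.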

How the results depend on the processing

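In the NC steers alone, the F test called 1 member in place of 7, the later days against day 0 gave 3 calls in place of 20 and consecutive samplings 0 in place of 7, with fewer libraries in the fit. Of the 20 calls against day 0, 18 had the same sign in NC alone, and 14 of these were not over 1.5 times smaller there. The NC steers are among those of the main fit, so part of this agreement is built in. The sign reversed for PSMB9 (-0.01) and PSMB10 (-0.09) on day 3 and for PSMB8 (-0.13) and NLRC5 (-0.10) from day 7 to day 14. Without the OXYT group the F test called 4 members. TAPBP on day 3 reversed to 0.06 when summed with ZBTB22, an alternative chosen after seeing the data. Without the steer as a replicate block, the counts were 5 for the F test, 16 for later days and 5 for consecutive samplings. ERAP1 on days 14, 21 and 56 passed under all 13 alternatives run, with log2 fold changes from -0.38 to -0.24.

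Against NC on each day, the count of 1 became 0 with lane as a term, 2 with the size factors of DESeq2 and 14 with DESeq2. With ComBat_seq, run without a treatment term, and the quasi-likelihood test it became 0. When each steer was left out in turn, ERAP1 in TILD on day 14 ranged from -0.87 to -0.73 (edgeR FDR 0.0459 to 0.15), and the count was 0 or 1. It was 0 without NC1, NC12, NC13, NC15, Tild10, Tild5 or Tild7.

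For the group effect, 3 calls became 0 after ComBat_seq, which was run without a treatment term. They became 1 with days 3 to 56 alone and 1 with lane as a term, that of ENRO, which shared its lane with NC. With no filter there were 5, and 12 without the replicate block, which treats the 6 libraries of a steer as independent. For change from day 0 and the interaction, leaving out the replicate block gave 0 calls in place of 3 and 1. ERAP1 in ENRO on day 7 was also lost by limma voom, and CALR in OXYT on day 56 with lane by day as a term. The causes were not tested. The alternative without a filter on low counts was not run for these last comparisons. All members had at least 767 counts per library, and the comparisons with NC rest on 6 steers per group.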
